A study of Rattus norvegicus with 39 samples.

Results

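The RT1 genes are the rat's major histocompatibility complex genes, and their RNA was measured in punches of the ventral tegmental area, a midbrain region that holds dopamine neurons. Members were all rows of the deposited table whose symbol starts with RT1- and whose value was above 0 in at least 1 library, which gave 47 of 48 such rows among 37403 genes. RT1-M10-1 was the row at 0 in every library. By name, 37 members are class I and 10 are class II. Among the class I names, RefSeq lists RT1-CE6 and RT1-T24-2 as long non-coding RNA and RT1-CE14 as miscellaneous RNA. A gene was kept for testing when its value was at least 10 in at least 4 libraries, and 39 of the 47 members passed this filter, 30 of class I and 9 of class II. The 8 members below it (RT1-CE7, RT1-DOa, RT1-M1-5, RT1-M2, RT1-M4, RT1-M5, RT1-M6-1 and RT1-T24-2) reached at most 1.31 CPM (counts per 1000000 counts of the library) in any library.

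The rats were adults of postnatal day 60 or older and all had self-administered through an intravenous line, either saline or morphine. Saline rats were sampled 1 day after their last session, and morphine rats after 1 day (D1) or 30 days (D30) of abstinence, in males and females. Males gave 8 saline, 9 D1 and 7 D30 libraries, and females gave 6, 4 and 5, which makes 39. Because saline rats were taken at 1 day only, the longer interval and the drug cannot be told apart at D30. Neither the strain nor the RT1 haplotype of the rats appears in the labels. The titles number the libraries as biological replicates without saying that each is a separate animal. The labels therefore do not settle whether the spread behind each p-value is that between animals. Library totals ran from 15161763 to 63118481 estimated counts with a median of 24493733. Slc6a3, the dopamine transporter transcript that marks dopamine neurons, ranged from 13.9 to 1685 CPM, and 7 libraries lay under 0.25 of its median: male saline 7 and 8, male D1 8, male D30 6 and 7, female saline 5 and female D30 2. Male D1 9 stood apart for class II genes. The male D1 values it moved most, and those of RT1-CE16, are also given without these libraries.

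Class I molecules sit on most nucleated cells, pair with the light chain beta-2 microglobulin (B2m) and present peptides from inside the cell to CD8 T cells, while many of the non-classical class I molecules have more specialised ligands. Class II molecules are pairs of an alpha and a beta chain that present peptides taken up from outside the cell, are assembled on the invariant chain Cd74, and are made mainly by macrophages, dendritic cells and B cells, with low levels in resting brain. The genes lie close together on chromosome 20, differ between inbred rat strains in number and sequence, and include many near-identical copies, so that short reads can be assigned to one copy or to its neighbour.

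The promoter sequences below show how alike some copies are and which known control motifs each class carries. They are the 250 bases before the start used in the RefSeq promoter table for assembly GRCr8, 5′ to 3′ on the gene's strand, with every motif match in capitals. RefSeq promoters were found for 41 of the 47 members, 32 of class I and 9 of class II. The motifs searched on both strands of the 300-base windows, which also hold 50 bases after the start, were the class II X box AGCAACNGATG, the Y box GATTGG, the class I enhancer A GGGGATTCCCC and an interferon response element TTTCNNTTTC, with N for any base. The letters of the X box, enhancer A and the response element were read from the promoters of RT1-Da, RT1-CE16 and RT1-S3, so these genes match by construction. Matches of different motifs may overlap. A match is a description of letters and not evidence of binding.

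The first set is RT1-CE16 (chr20:3265444-3265693, minus strand), the gene with the widest step between libraries, its closest promoter among the members with a RefSeq sequence, RT1-CE13 (chr20:3322800-3323049, minus strand), and the classical class I gene RT1-A1 (chr20:4906959-4907208, plus strand).
RT1-CE16: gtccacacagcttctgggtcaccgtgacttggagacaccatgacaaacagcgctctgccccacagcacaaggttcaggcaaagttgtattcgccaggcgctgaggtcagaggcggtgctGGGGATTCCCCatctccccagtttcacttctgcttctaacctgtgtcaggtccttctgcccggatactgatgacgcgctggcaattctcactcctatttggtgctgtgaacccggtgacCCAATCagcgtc
RT1-CE13: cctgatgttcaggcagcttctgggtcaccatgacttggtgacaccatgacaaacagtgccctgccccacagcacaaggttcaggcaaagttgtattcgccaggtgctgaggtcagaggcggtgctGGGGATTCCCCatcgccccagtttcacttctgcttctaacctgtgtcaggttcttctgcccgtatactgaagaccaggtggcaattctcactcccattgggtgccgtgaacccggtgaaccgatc
RT1-A1: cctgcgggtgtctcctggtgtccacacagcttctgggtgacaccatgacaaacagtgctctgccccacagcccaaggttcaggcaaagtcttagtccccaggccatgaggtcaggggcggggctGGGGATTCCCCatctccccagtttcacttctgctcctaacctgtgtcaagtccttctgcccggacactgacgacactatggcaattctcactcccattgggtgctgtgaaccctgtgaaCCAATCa
The enhancer A match stood in 8 of 32 class I promoters (RT1-A1, RT1-A2, RT1-A3, RT1-CE4, RT1-CE10, RT1-CE11, RT1-CE13 and RT1-CE16), in none of 9 class II promoters and in 0.0627% of 33469 promoters. RT1-CE16 and RT1-CE13 shared 270 identical bases over 295 aligned columns (91.5%), and RT1-CE16 and RT1-A1 shared 250 over 296. Over all 820 pairs of member promoters the median was 92 identical bases, and 58 pairs shared 200 or more.

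The next set is a pair of class I genes whose annotated spans overlap and whose levels ran opposite between libraries, RT1-O1l1 (chr20:2627184-2627433, plus strand) and RT1-N2 (chr20:2646080-2646329, plus strand).
RT1-O1l1: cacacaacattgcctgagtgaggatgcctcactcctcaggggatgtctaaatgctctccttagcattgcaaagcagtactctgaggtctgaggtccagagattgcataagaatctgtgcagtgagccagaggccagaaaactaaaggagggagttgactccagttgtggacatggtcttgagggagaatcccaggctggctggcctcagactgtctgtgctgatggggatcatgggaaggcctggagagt
RT1-N2: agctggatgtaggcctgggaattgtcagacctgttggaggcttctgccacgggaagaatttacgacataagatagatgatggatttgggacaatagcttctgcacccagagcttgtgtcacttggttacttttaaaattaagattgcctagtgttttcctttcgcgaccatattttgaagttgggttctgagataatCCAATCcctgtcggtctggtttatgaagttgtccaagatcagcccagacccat
The interferon response element was matched in 3 class I promoters (RT1-N3, RT1-S2 and RT1-S3), in no class II promoter and in 3.92% of all promoters.

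The last set holds class II genes that were highest in male D1 9: RT1-Da (chr20:4515165-4515414, plus strand), the alpha chain of RT1-D, RT1-Db1 (chr20:4560163-4560412, minus strand), a beta chain of RT1-D, and RT1-Bb (chr20:4604119-4604368, minus strand), the beta chain of RT1-B.
RT1-Da: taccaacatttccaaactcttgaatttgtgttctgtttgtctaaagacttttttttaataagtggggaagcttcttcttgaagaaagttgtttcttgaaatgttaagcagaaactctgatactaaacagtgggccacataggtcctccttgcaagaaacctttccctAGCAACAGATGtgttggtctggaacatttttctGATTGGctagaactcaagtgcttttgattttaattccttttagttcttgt
RT1-Db1: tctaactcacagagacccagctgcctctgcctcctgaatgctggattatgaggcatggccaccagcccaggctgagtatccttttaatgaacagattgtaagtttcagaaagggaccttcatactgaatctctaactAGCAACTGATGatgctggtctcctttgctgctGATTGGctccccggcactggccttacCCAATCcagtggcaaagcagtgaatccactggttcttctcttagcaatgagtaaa
RT1-Bb: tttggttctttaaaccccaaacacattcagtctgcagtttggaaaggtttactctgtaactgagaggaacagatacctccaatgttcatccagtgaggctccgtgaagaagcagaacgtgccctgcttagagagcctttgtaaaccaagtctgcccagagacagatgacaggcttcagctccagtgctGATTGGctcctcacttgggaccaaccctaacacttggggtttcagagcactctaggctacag
The X box was matched in 4 of 9 class II promoters (RT1-Da, RT1-Db1, RT1-Db2 and RT1-DOb), in none of 32 class I promoters and in 0.0478% of all promoters. In these 4 the Y box began 33, 32, 31 and 30 bases after the X box began, respectively. The Y box, a short motif, was matched in 9 of 9 class II promoters, 15 of 32 class I promoters and 14.8% of all promoters.

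Variation between libraries of the same group exceeded variation between groups for the RT1 genes, as it did at the median of all genes tested. Group means also differ by chance, and the share that chance alone gives was not computed. On log2(CPM + 0.25), the median share of variance that lay between the 6 groups was 12.1% over the 39 tested RT1 genes (range 2.36% to 28.8%) and 16.6% over all 22493 genes tested. The within-group SD had a median of 0.59 for RT1 genes and 0.29 for all genes. The 4 members with the largest within-group SD were class I genes: RT1-S2 at 1.66, RT1-CE16 at 1.44, RT1-O1l1 at 1.32 and RT1-CE10 at 1.30. At the other end lay RT1-N3 at 0.20, RT1-DMa at 0.22 and RT1-M3-1, which presents formylated peptides, at 0.22.

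**Figure D1:**
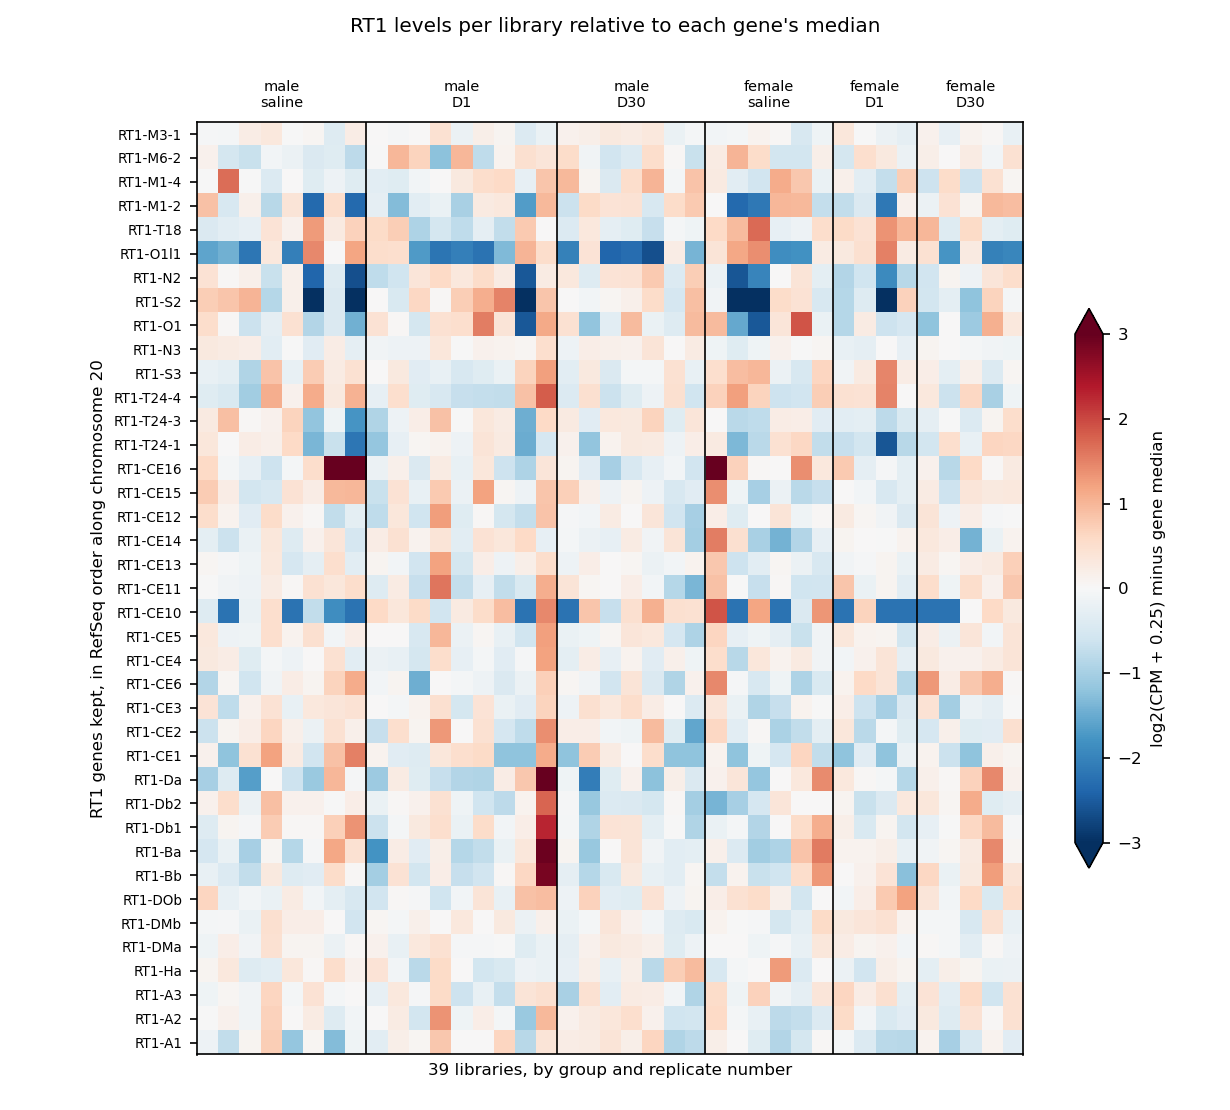
Each cell is log2(CPM + 0.25) of 1 of the 39 tested RT1 genes (rows, in RefSeq order along chromosome 20) in 1 of 39 libraries (columns, by group), minus the gene's median, with the colour scale ending at 3 either way. The strongest colours mark single libraries within groups: RT1-CE16 in 3 saline libraries, the class II genes in 1 male D1 library, and RT1-S2 with its neighbours in 6 libraries spread over 4 groups.

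No RT1 gene was called in any of the 11 pairwise and interaction comparisons (edgeR quasi-likelihood test, Benjamini-Hochberg adjusted p under 0.05 over 22493 genes). Against male saline, 0 of 39 RT1 genes were called in male D1, where 0.00889% of all genes were called, and 0 of 39 in male D30, where the share was 0%. Against female saline, 0 of 39 were called in female D1 and 0 of 39 in female D30, beside 0% of all genes in each. Between the abstinence times, 0 of 39 were called in males (0.0756% of all genes) and 0 of 39 in females (0%). Females against males gave 0 of 39 in saline (0.609%), 0 of 39 at D1 (0.0445%) and 0 of 39 at D30 (1.08%), and the difference of the morphine effect between the sexes gave 0 of 39 at D1 and 0 of 39 at D30 (0% in each). DESeq2 and limma on log2(value + 1) also called 0 RT1 genes in these 11 comparisons, where DESeq2 left 1 to 6 RT1 genes without an adjusted p.

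At an unadjusted edgeR p under 0.05, 4 RT1 genes stood out in male D1 against saline (4.8% of all genes), 2 in male D30 against saline (3.28%), 1 in female D1 against saline (6.82%) and 1 in female D30 against saline (6.14%). The counts were 4 in male D30 against D1 (8.32%), 1 in female D30 against D1 (5.35%), 1 between the sexes in saline (21.1%), 3 at D1 (9.38%) and 2 at D30 (16.6%), and 1 in each test of a sex difference in the morphine effect (3.79% at D1 and 6.31% at D30). The corresponding DESeq2 counts lay between 0 and 6, and those of limma between 0 and 5. The median log2 fold change of the 39 genes was 0.06 in male D1 (23 higher, 16 lower), -0.10 in male D30 (16 higher, 23 lower), -0.08 in female D1 (15 higher, 24 lower) and 0.06 in female D30 (23 higher, 16 lower), each against saline of the same sex. The medians over all genes in these comparisons lay between -0.02 and 0.00. Without male D1 9 the median in male D1 was -0.05 (15 higher, 24 lower), and the unadjusted counts were 2 in male D1 against saline and 0 in male D30 against D1. Both morphine groups of a sex share its saline libraries, so these values are not independent.

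**Figure D2:**
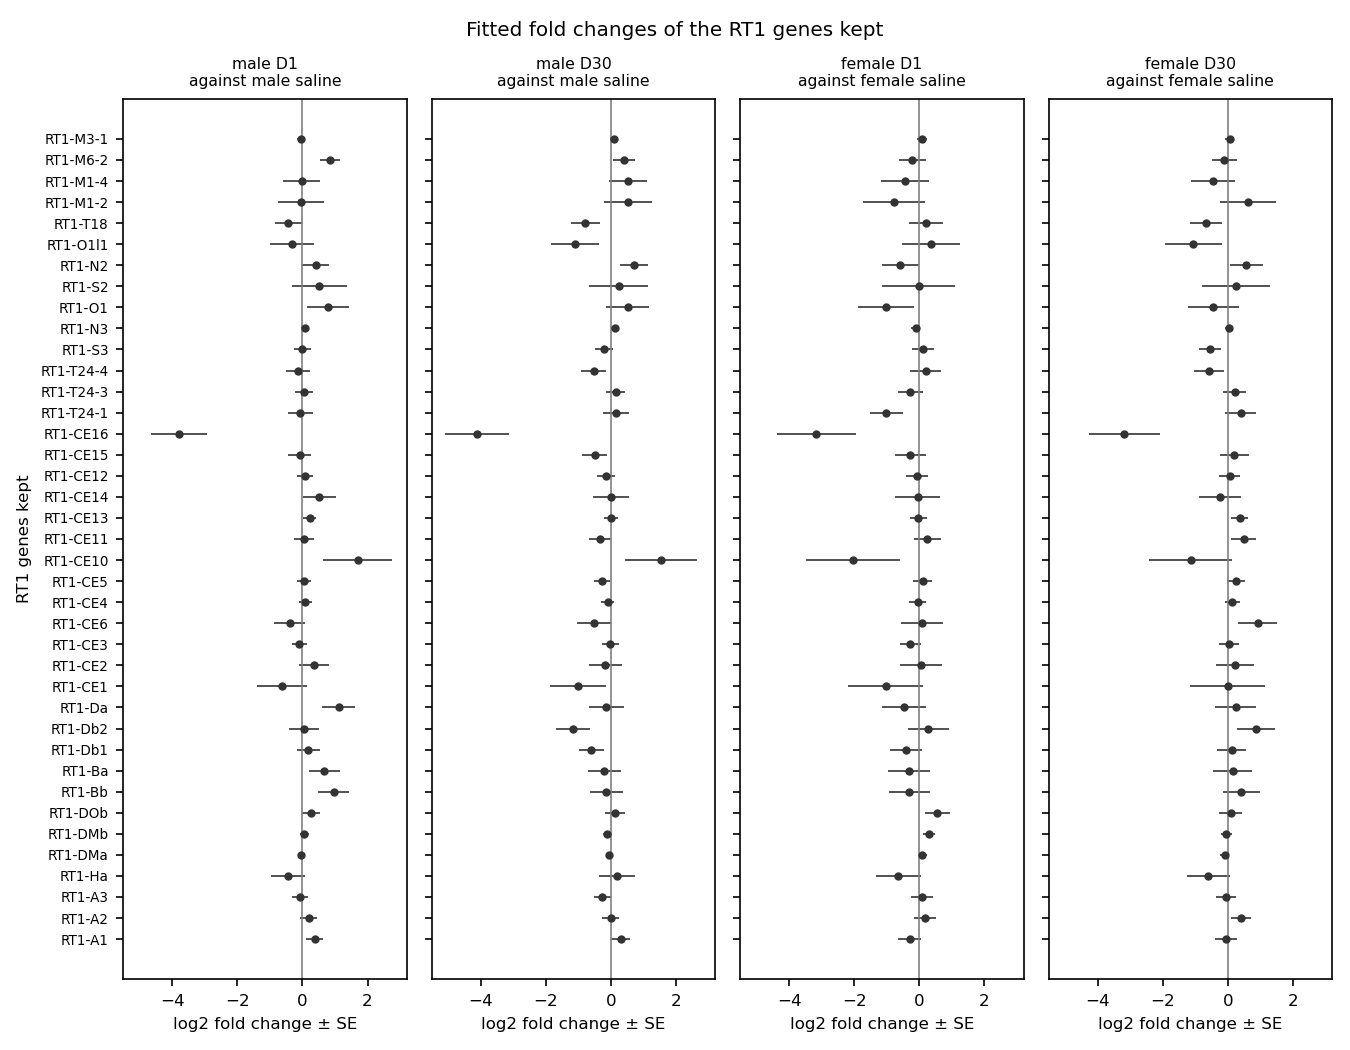
Points are fitted log2 fold changes of the 39 tested RT1 genes (rows) in the 4 comparisons of a morphine group with saline of the same sex, with bars of 1 SE. RT1-CE16 has the lowest value in all 4, from -3.16 to -4.12, and none of the values shown was called. In females its bar overlaps that of RT1-CE10, which is at -2.03 in D1 and -1.14 in D30.

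RT1-CE16, a class I gene of the RT1-C/E region, was the single RT1 gene called in the joint test for any difference between saline, D1 and D30 within a sex (4 coefficients, edgeR adjusted p = 0.0147), a test in which 0.0978% of all genes were called. At an unadjusted p under 0.05 it was likewise the single RT1 gene of 39, beside 7.08% of all genes. The difference lay in 3 libraries. Male saline 7 held 36.4 CPM, male saline 8 held 66.0 CPM and female saline 1 held 54.8 CPM, while the other 36 libraries lay at or below 3.17 CPM. The gap between 3.17 and 36.4 CPM held no library, and within saline the other 6 male libraries lay between 0.597 and 1.71 CPM.

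In male saline the lowest, median and highest RT1-CE16 levels were 0.597, 1.32 and 66.0 CPM, in male D1 0.431, 0.901 and 1.42 CPM, and in male D30 0.407, 0.783 and 1.14 CPM. In female saline they were 1.05, 1.61 and 54.8 CPM. The 4 female D1 libraries held 2.00, 0.839, 1.03 and 0.818 CPM, and the 5 female D30 libraries 1.18, 0.479, 1.71, 1.09 and 1.33 CPM. The groups overlapped outside the 3 high libraries, and the medians of the 6 groups lay between 0.783 and 1.61 CPM. The fitted log2 fold change against male saline was -3.79 (SE 0.87, edgeR adjusted p = 0.252) at D1 and -4.12 (SE 0.98, edgeR adjusted p = 1) at D30. Against female saline it was -3.16 (SE 1.204, edgeR adjusted p = 0.706) at D1 and -3.18 (SE 1.10, edgeR adjusted p = 0.750) at D30.

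The joint call was lost with a replicate block (edgeR adjusted p = 0.917), a block for library-name series (edgeR adjusted p = 0.988) and limma (adjusted p = 1.00), and DESeq2 gave RT1-CE16 no adjusted p. The male D1 fold change was -1.32 with the replicate block, -1.58 with limma and -2.50 with DESeq2, and the female D1 value was -1.19 with the series block. Leaving out female saline 1 brought the female values to -0.54 at D1 and -0.56 at D30. Leaving out male saline 8 ended the joint call (edgeR adjusted p = 0.0633, in a range of 0.00667 to 1.00 over the alternatives run). Male saline 7 and 8 also had little Slc6a3, at 174 and 197 CPM against a median of 847 CPM over 39 libraries, whereas female saline 1 held 1043 CPM. Without the 7 libraries whose Slc6a3 lay under 0.25 of its median, RT1-CE16 was no longer called in the joint test (edgeR adjusted p = 0.217) and its male fold changes were -0.11 at D1 and -0.56 at D30. Its female fold changes stayed at -3.36 at D1 (edgeR adjusted p = 0.235) and -3.17 at D30 (edgeR adjusted p = 0.264). Apart from male saline 7 and 8, the libraries low in Slc6a3 held at most 3.17 CPM of RT1-CE16. A part of punch composition in the result was not tested. Among the 820 genes with a step between libraries, as defined next, no other gene divided the 39 libraries as RT1-CE16 did.

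A step was defined as a gap of at least 2 on log2(CPM + 0.25), which is 4-fold, with at least 2 libraries on each side and a highest level of at least 1 CPM. RT1-CE16 and RT1-S2 met it, 2 of 39 RT1 genes, beside 3.65% of all genes. RT1-S2, a non-classical class I gene, was at 0 CPM in 6 libraries and had at least 1.55 CPM in the 33 others. Those at 0, after rounding of the values, were male saline 6 and 8, male D1 8, female saline 2 and 3, and female D1 3, so libraries at 0 and libraries with signal stood side by side in 4 of 6 groups. Counts of 0 at these depths allow at most 0.0863 to 0.138 CPM (3 counts, counting error only).

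RT1-S2 ranged from 0 to 8.15 CPM in male saline with a median of 3.59, from 0 to 11.3 CPM in male D1 with a median of 6.07, from 2.67 to 7.53 CPM in male D30 with a median of 4.07, and from 0 to 5.81 CPM in female saline with a median of 3.16. The female D1 libraries held 2.05, 2.90, 0 and 6.44 CPM, and the female D30 libraries 2.57, 3.16, 1.55, 6.33 and 3.73 CPM. All groups overlapped, and no comparison called the gene.

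**Figure D3:**
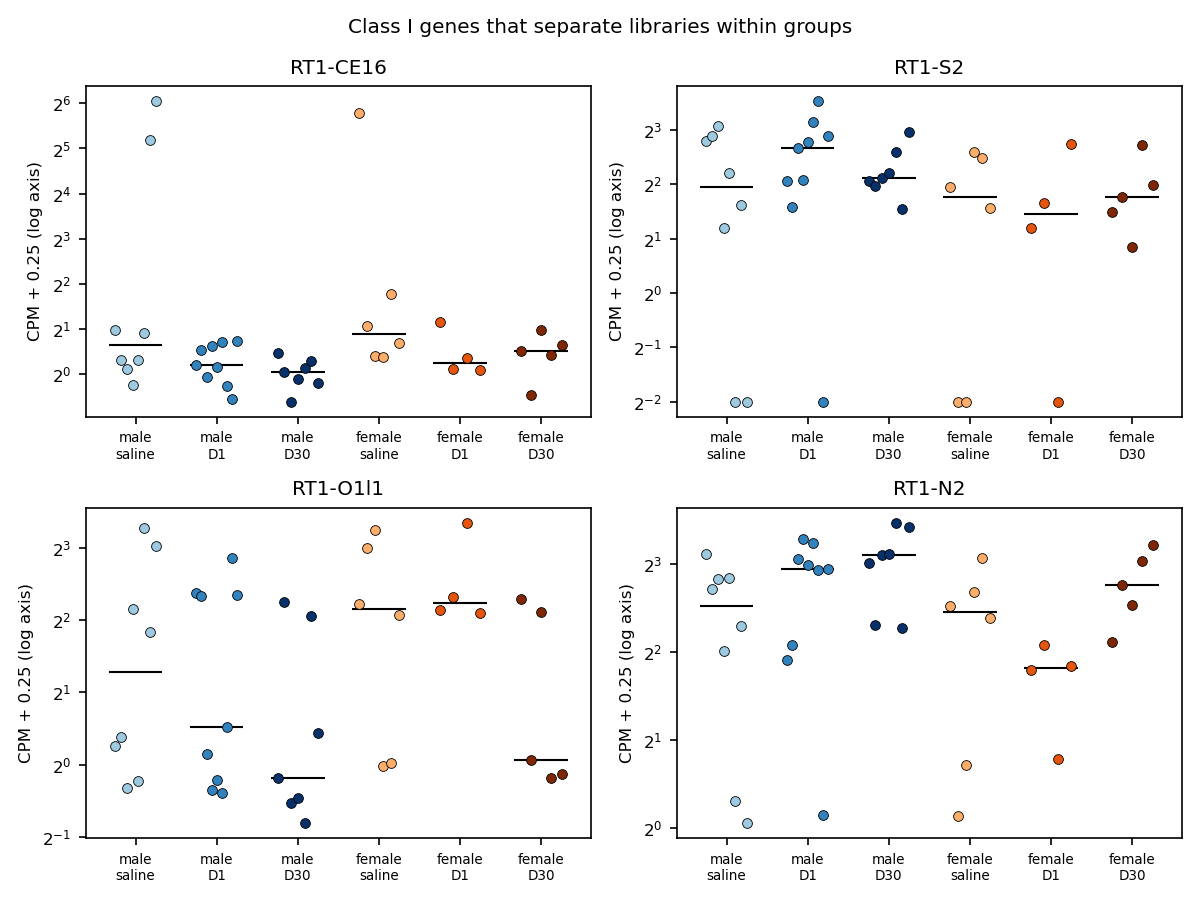
Points are libraries, bars are group medians and the axis is CPM + 0.25 on a log2 scale for 4 class I genes. RT1-CE16 is above 36 CPM in 3 saline libraries only, RT1-S2 is at 0 in 6 libraries of 4 groups, and RT1-O1l1 forms separate bands within groups. RT1-N2 is at most 1.48 CPM in the 6 libraries where RT1-O1l1 is highest, and its other levels overlap between bands.

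The 6 libraries without RT1-S2 were the same 6 in which RT1-O1l1, an annotated relative of RT1-O1, was highest. RT1-O1l1 fell into 3 bands: 19 libraries at 0.319 to 1.18 CPM, 14 at 3.32 to 4.91 CPM and 6 at 6.98 to 9.93 CPM. The bands, and the genes set against them here, were chosen after the values were seen and are given without a test. Low, middle and high libraries numbered 4, 2 and 2 in male saline, 5, 3 and 1 in male D1, 5, 2 and 0 in male D30, 2, 2 and 2 in female saline, 0, 3 and 1 in female D1, and 3, 2 and 0 in female D30. Every group held libraries of at least 2 bands.

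RT1-N2 ran the opposite way, at 6.19 to 10.9 CPM in the low band of RT1-O1l1, 3.23 to 7.43 CPM in the middle band and 0.789 to 1.48 CPM in the high band. RT1-T24-1 did so too, at 2.56 to 4.62, 1.13 to 3.50 and 0.275 to 1.55 CPM. RT1-S3, the rat relative of mouse H2-T23, which presents leader peptides to natural killer cell receptors, went the same way as RT1-O1l1, at 5.41 to 10.8, 9.64 to 24.7 and 14.2 to 28.9 CPM. RT1-T18 went the same way at lower levels, 0.142 to 0.564, 0.472 to 1.24 and 0.958 to 2.17 CPM. Their neighbour RT1-N3 did not separate, at 7.35 to 10.9, 6.52 to 11.7 and 6.26 to 8.59 CPM. RT1-M1-2 was at 0.0344 CPM or less in 5 of the 6 high-band libraries and at 0.144 CPM in the other, male D1 8.

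**Figure D4:**
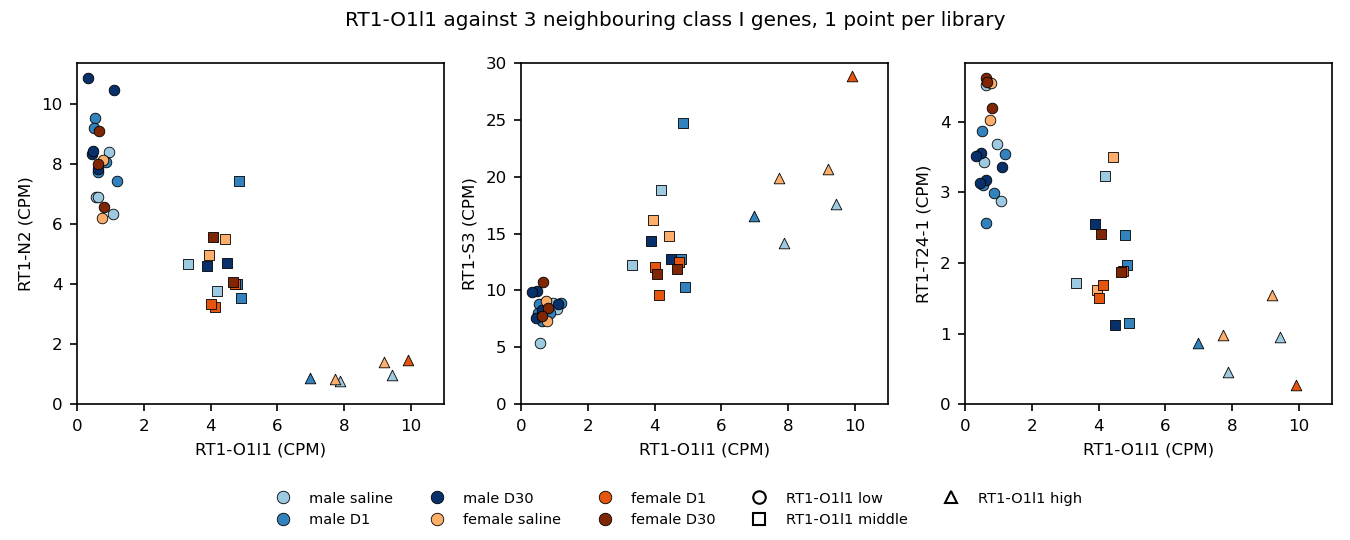
Each point is 1 library, with RT1-O1l1 in CPM on the horizontal axis and RT1-N2, RT1-S3 or RT1-T24-1 in CPM on the vertical axis; colour gives the group and shape the RT1-O1l1 band. RT1-N2 reaches 10.9 CPM in the low band and at most 1.48 CPM in the high band, while RT1-S3 is at most 10.8 CPM in the low band and at least 14.2 CPM in the high band, with colours mixed in every band.

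Over all 22493 tested genes, the number of the 20 highest or 20 lowest libraries shared with the 20 libraries above the low band of RT1-O1l1 was counted. It was 18 or more for 9 genes, RT1-O1l1 itself included. All 9 lie on chromosome 20 and 8 are RT1 genes: RT1-O1l1, RT1-N2, RT1-S3, RT1-T18, RT1-T24-4, RT1-S2, RT1-T24-1 and RT1-T24-3, with LOC134483847 as the other. Of the 9, 5 were high in the same libraries as RT1-O1l1 and 4 were low there. The 8 RT1 genes lie within a stretch of 11 RT1 genes in RefSeq order, from RT1-T18 (chr20:2605478-2614543) to RT1-T24-1 (chr20:2766304-2779680). The stretch also holds RT1-O1, which shared 15 of the 20 libraries, RT1-N3, which shared 12, and RT1-T24-2, which was not tested. In GRCr8 the span of RT1-O1l1 (chr20:2627434-2664895) overlaps those of RT1-N2, RT1-S2 and RT1-O1, and RT1-T24-4 overlaps RT1-T24-3.

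For 2 sets of neighbours the sum varied less than each member, which a sum of several genes tends to do in any case. RT1-O1l1, RT1-N2, RT1-S2 and RT1-O1 together held 7.84 to 22.3 CPM, with a within-group coefficient of variation of 25.2% for the sum and 45.04% to 87.0% for the members. For RT1-T24-1, RT1-T24-3 and RT1-T24-4 the sum varied by 28.6% and the members by 38.7% to 57.6%. The 17 RT1-A and RT1-CE genes did not show this, with 41.5% for the sum and a member median of 44.9% (lowest 30.6%, highest 279% for RT1-CE16). Their sum was highest, at 136 CPM, in female saline 1, which held 54.8 CPM of RT1-CE16. The sum without RT1-CE16 was not computed. Differences in the genes an animal carries and in how reads were shared between overlapping copies cannot be told apart in these values. The high band held 5 libraries from the 11 whose library names begin with 4, and 1 from the 3 whose names begin with Blue. The RT1-CE16 step held 2 libraries of the former series and 1 of the 6 whose names begin with 1. The labels do not explain the library names.

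The fold changes of these genes are given beside the number of libraries of each band. RT1-T24-1 had a log2 fold change of -1.01 (SE 0.52, edgeR adjusted p = 0.740) in female D1 against saline and of 1.40 (SE 0.54, edgeR adjusted p = 0.912) in female D30 against D1. Female D1 held no low-band library and female D30 held 3, and the part of the bands in these values was not tested. The 4 female D1 libraries held 1.68, 1.89, 0.275 and 1.503 CPM of RT1-T24-1, and the 5 female D30 libraries 1.87, 4.20, 2.41, 4.62 and 4.56 CPM. The 2 groups overlapped by the lowest D30 library, and neither value was called. RT1-T18 was at -0.78 (SE 0.44) in male D30 and -0.67 (SE 0.50) in female D30 against saline, and RT1-N2 at 0.70 (SE 0.44) in male D30, none of them called.

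RT1-CE10, a class I gene that overlaps RT1-CE11 in the annotation, was at 0 CPM in 12 libraries after rounding and reached 4.06 CPM in female saline 1. The 12 were 3 of 8 male saline, 1 of 9 male D1, 1 of 7 male D30, 2 of 6 female saline, 3 of 4 female D1 and 2 of 5 female D30 libraries. Its log2 fold change against saline was 1.70 (SE 1.05) in male D1, 1.54 (SE 1.10) in male D30, -2.03 (SE 1.45) in female D1 and -1.14 (SE 1.27) in female D30, none of them called.

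The classical class I genes showed moderate spread and overlapping groups. In males RT1-A1 had a mean of 4.10 ± 2.03 CPM (SD, n = 8) after saline, 5.34 ± 1.81 (SD, n = 9) at D1 and 5.03 ± 1.86 (SD, n = 7) at D30. In females it was 4.02 ± 1.12 (SD, n = 6) in saline, 3.27 ± 0.928 (SD, n = 4) at D1 and 3.87 ± 1.22 (SD, n = 5) at D30. RT1-A2 lay between 3.27 and 19.02 CPM over all libraries, with the highest level in male D1 4. No difference between groups was called for either gene.

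Across 39 libraries RT1-A2 followed B2m (Pearson r = 0.73, permutation p = 1e-05, the smallest that 100000 resamples can give, adjusted p = 6e-05 over 36 pairs; Spearman rho = 0.71, permutation p = 1e-05, adjusted p = 7.2e-05). RT1-A1 followed it with r = 0.65 (permutation p = 2e-05, adjusted p = 0.000103) and rho = 0.66 (permutation p = 1e-05, adjusted p = 7.2e-05). Without the 2 libraries farthest from the median of B2m, r was 0.70 for RT1-A2 and 0.62 for RT1-A1. Within the library-name series of 6, 9, 8 and 11 libraries, r was -0.12, 0.52, 0.71 and 0.78 for RT1-A2 and -0.11, 0.63, 0.51 and 0.69 for RT1-A1, so the relation did not hold in the series of 6. Of 27 class I genes set against B2m, with RT1-CE16, RT1-S2 and RT1-O1l1 left out for their steps or bands, 15 had an adjusted p under 0.05, 14 of them with a positive r and RT1-T18 with a negative one. RT1-T18 and 5 others of the 27 follow the RT1-O1l1 bands, so their r spans separate clusters of libraries and is not read further. These points share library, depth and tissue composition. The share of all genes that follow B2m was not computed, so the count of 15 cannot be read as particular to RT1 genes.

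Among the other class I genes, RT1-M6-2 had the lowest p for a higher level in male D1 than in male saline, at a log2 fold change of 0.84 (SE 0.32, edgeR adjusted p = 0.691). Its lowest, median and highest levels were 0.451, 0.666 and 1.07 CPM in male saline and 0.266, 1.31 and 2.15 CPM in male D1, so the male D1 libraries lay on both sides of the saline range. Its promoter and that of RT1-M6-1 shared 290 identical bases of 300, and whether their transcripts share reads was not tested. RT1-CE6 and RT1-CE13 were at 0.92 (SE 0.59) and 0.36 (SE 0.25) in female D30 against saline, and RT1-S3 at -0.55 (SE 0.33), none of them called. RT1-M3-1 stayed between 16.96 and 32.5 CPM in every library.

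The classical class II genes were all highest in male D1 9, and the libraries that came next differed between genes. RT1-Da, the RT1-D alpha chain, reached 27.5 CPM in male D1 9, where the next male D1 library held 5.57 CPM. RT1-Ba, the RT1-B alpha chain, reached 23.9 CPM there against a next value of 3.74, RT1-Bb 9.47 against 1.80 and RT1-Db1 9.21 against 2.61. The next highest RT1-Da levels were 8.74 CPM in female D30 4, 8.59 in female saline 6 and 6.40 in male saline 7, and the same 3 libraries followed male D1 9 for RT1-Ba, at 8.31, 8.91 and 6.74 CPM. Female saline 6 and female D30 4 also came next for RT1-Bb, and RT1-Db1 had male saline 8 before them at 4.73 CPM. RT1-Db2 reached 1.97 CPM in male D1 9 and was next highest in female D30 3, male saline 4 and male saline 2, at 1.18, 0.995 and 0.705 CPM. Cd74 was highest in male D1 9, female D30 4, female saline 6 and male saline 7, at 74.8, 33.1, 27.2 and 24.4 CPM against a median of 10.2. Ciita, the class II transactivator, had the same 4 libraries on top, at 0.367, 0.165, 0.222 and 0.137 CPM. Female saline 1 came next for Ciita at 0.125 CPM, its median was 0.0528 CPM and 5 libraries were at 0. The Ciita order therefore rests on few estimated counts.

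In male saline the lowest, median and highest RT1-Da levels were 0.802, 2.10 and 6.40 CPM, in male D1 1.31, 2.32 and 27.5 CPM, in male D30 0.539, 2.35 and 3.54 CPM, and in female saline 1.24, 3.63 and 8.59 CPM. The 4 female D1 libraries held 3.91, 3.19, 2.96 and 1.58 CPM, and the 5 female D30 libraries 3.48, 3.16, 5.14, 8.74 and 3.40 CPM. The groups overlapped, with medians from 2.10 to 3.63 CPM. The log2 fold change in male D1 against saline was 1.11 (SE 0.51, edgeR adjusted p = 0.944) for RT1-Da and 0.96 (SE 0.47, edgeR adjusted p = 1) for RT1-Bb, and without male D1 9 these were 0.09 and 0.01. In male D30 against male D1, RT1-Da was at -1.25 and RT1-Bb at -1.11, and without male D1 9 at -0.23 and -0.15. RT1-Db2, a further RT1-D beta gene, was at -1.17 (SE 0.52, edgeR adjusted p = 1) in male D30 against saline and 0.86 (SE 0.59, edgeR adjusted p = 0.952) in female D30 against saline.

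**Figure D5:**
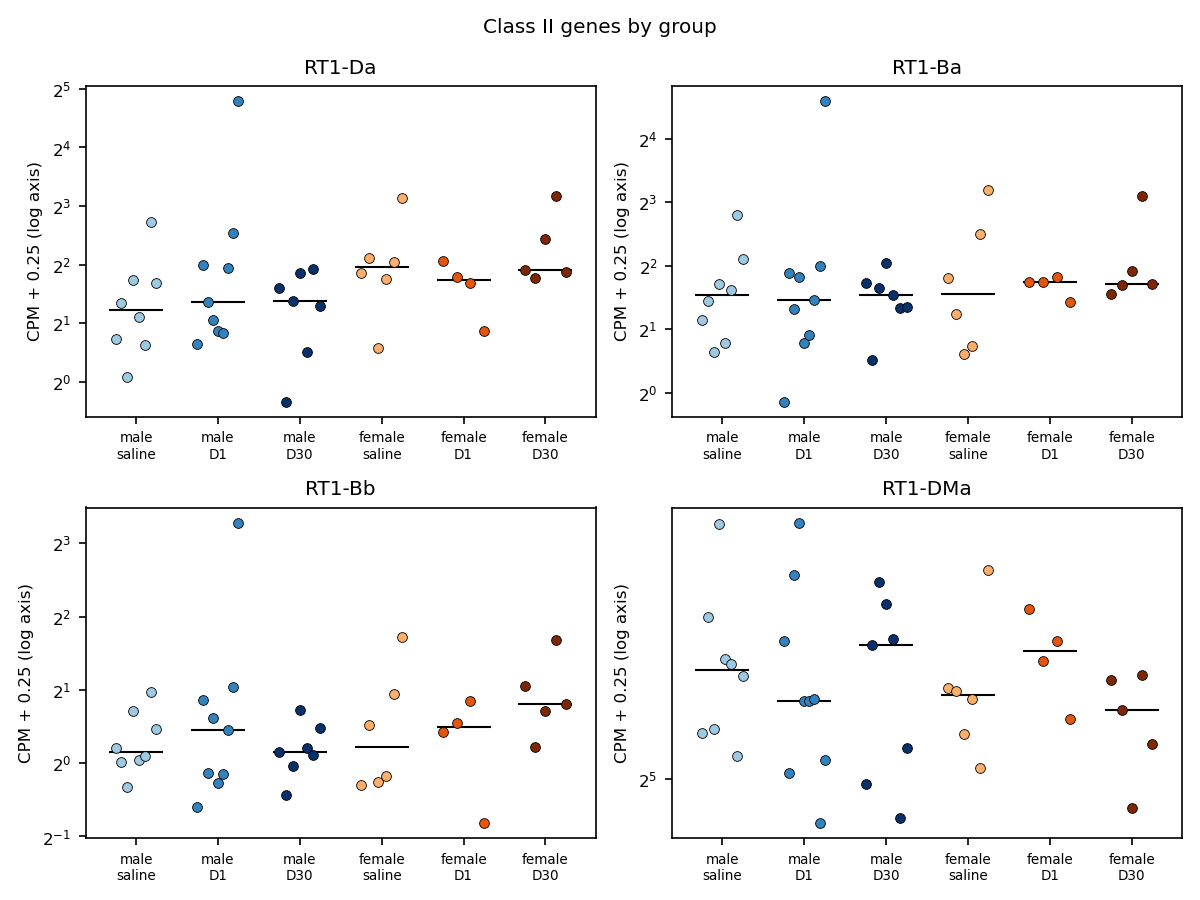
Points are libraries, bars are group medians and the axis is CPM + 0.25 on a log2 scale for 4 class II genes. Male D1 9 stands above its group for RT1-Da, RT1-Ba and RT1-Bb at 27.5, 23.9 and 9.47 CPM, while RT1-DMa stays between 29.1 and 52.2 CPM in all 39 libraries.

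Marker genes of other cell types were also high in some of these libraries, and which ones differed between the lists. The summed level of 7 perivascular macrophage markers, 6 of which were tested, was highest in male D1 9 at 47.7 CPM, next in female saline 6 at 24.6 and then in female D30 4 at 18.1, against a median of 11.6 CPM. It ran from 8.98 to 12.1 CPM in male saline, 10.01 to 47.7 in male D1, 7.44 to 13.9 in male D30, 4.76 to 24.6 in female saline, 12.2 to 14.4 in female D1 and 8.35 to 18.1 in female D30. Male saline 7 was not high for these markers, with 1.27 CPM of Mrc1 and 0.889 CPM of Cd163 against medians of 2.13 and 1.605 CPM. Of these markers, Mrc1, Cd163, Lyve1, F13a1 and Pf4 were above 0 in every library, and Ms4a7 and Cbr2 were at 0 in some. Choroid plexus markers, 5 of 5 tested, were highest in female saline 6 at 2857 CPM, male saline 7 at 1623 and female D30 4 at 286, against a median of 20.8, and meningeal and mural markers, 8 of 8 tested, in male D1 9 at 1504 against 298. Microglia markers, 11 of 12 tested, ranked 24th, 6th, 9th and 25th of 39 in male D1 9, female saline 6, female D30 4 and male saline 7. Slc6a3 lay under its median of 847 CPM in the same libraries. It was 290 CPM in male D1 9, 457 in female saline 6, 640.5 in female D30 4 and 174 in male saline 7. Of these, male saline 7 alone was in the set counted as low in Slc6a3. Male D30 6 and 7 held less Slc6a3, at 28.6 and 13.9 CPM, and no male D30 library exceeded 3.54 CPM of RT1-Da. The part of the marked cell types and of dopamine neuron content in the class II levels was not tested. In punches of tissue more cells of a type and more RNA per cell cannot be told apart.

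Across the 39 libraries RT1-Da followed Cd74 with r = 0.93 (permutation p = 1e-05, adjusted p = 6e-05) and rho = 0.86 (permutation p = 1e-05, adjusted p = 7.2e-05). Without the 2 libraries farthest from the median of Cd74, male D1 9 and male D30 2, r was 0.88, and within the library-name series of 6, 9, 8 and 11 libraries it was 0.78, 0.86, 0.91 and 0.96. RT1-Bb had r = 0.91 and RT1-Ba r = 0.90 in the same test, each with permutation p = 1e-05. Of 9 class II genes, 5 had an adjusted p under 0.05 against Cd74, and these were the 5 RT1-B and RT1-D genes. The share of all genes that follow Cd74 was not computed. For RT1-Db2 r was 0.46 with those 2 libraries and 0.14 without them, so its relation rested on them.

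RT1-DMa and RT1-DMb, the chains of the DM molecule that loads peptides onto class II, had their highest levels in other libraries than male D1 9. RT1-DMa lay at 33.2, 39.2 and 52.0 CPM (lowest, median and highest) in male saline, 29.1, 36.9 and 52.2 in male D1, 29.4, 41.2 and 46.6 in male D30, and 32.4, 37.4 and 47.7 in female saline. The female D1 libraries held 44.2, 39.9, 41.5 and 35.7 CPM, and the female D30 libraries 38.5, 36.3, 30.0, 38.9 and 34.01. All groups overlapped. RT1-DMa held 32.9 CPM in male D1 9, and its r with Cd74 was -0.14 (permutation p = 0.401, adjusted p = 0.4655). RT1-DMb lay between 10.8 and 24.5 CPM, highest in female saline 6, with a log2 fold change of 0.31 (SE 0.18, edgeR adjusted p = 0.792) in female D1 against saline, and RT1-DOb, a chain of the DM inhibitor DO, had 0.55 (SE 0.37, edgeR adjusted p = 0.836) there.

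Summed over all members, class I held a mean of 155 ± 26.4 CPM (SD, n = 8) in saline males, 149 ± 44.8 (SD, n = 9) in D1 males and 138 ± 14.3 (SD, n = 7) in D30 males. In females the class I mean was 148 ± 42.0 (SD, n = 6) after saline, 138 ± 19.6 (SD, n = 4) at D1 and 139 ± 15.6 (SD, n = 5) at D30. RT1-CE16 was part of these sums, with means of 13.65, 0.978, 0.783, 10.56, 1.17 and 1.16 CPM in the same order. The class I sums without RT1-CE16 were not computed. The class II sums in the same order were 66.8 ± 9.81, 72.5 ± 21.1, 62.5 ± 9.95, 66.9 ± 15.6, 71.0 ± 6.68 and 66.1 ± 11.5 CPM. Their largest members were RT1-DMa and RT1-DMb, with means of 38.4 and 16.9 CPM over the 39 libraries. The RT1-B and RT1-D genes had means of 0.436 to 3.72 CPM, so these sums mostly hold the DM chains. The group means of each class differed by less than the largest spread within a group. The highest sum of each class was in male D1 9, at 244 CPM for class I and 126 CPM for class II. Without it the male D1 means were 137 ± 28.9 and 65.8 ± 7.19 CPM (SD, n = 8).

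None of the other genes of antigen presentation was called against saline. Of 27 listed genes for peptide processing, transport and class I and II control, 26 were tested, and 0 were called in any comparison of a morphine group with saline, with 17 higher and 9 lower in male D1, 14 and 12 in male D30, 17 and 9 in female D1, and 13 and 13 in female D30. At an unadjusted edgeR p under 0.05 the counts were 1, 0, 2 and 1 in the same order, beside 4.8%, 3.28%, 6.82% and 6.14% of all genes, and DESeq2 and limma also called 0. The called member in any comparison was Psme2, a subunit of the proteasome activator, in female D30 against male D30 at a log2 fold change of -0.45 (SE 0.11, edgeR adjusted p = 0.0344), where 1.08% of all genes were called. B2m was at -0.02 (SE 0.11) in male D1, 0.01 (SE 0.11) in male D30, 0.08 (SE 0.14) in female D1 and 0.22 (SE 0.13) in female D30 against saline, and Cd74 at 0.70 (SE 0.43), -0.22 (SE 0.46), -0.40 (SE 0.57) and 0.46 (SE 0.53). Without male D1 9 the male D1 value of Cd74 was -0.10 (SE 0.33). Tap1, part of the peptide transporter, and Nlrc5, the class I transactivator, lay between -0.26 and 0.11 in these 4 comparisons. Of 24 interferon-responsive genes, all tested, 0 were called, with 6 higher and 18 lower in male D1, 7 and 17 in male D30, 16 and 8 in female D1, and 9 and 15 in female D30 against saline. At an unadjusted edgeR p under 0.05 these counts were 1, 2, 6 and 1, beside the same shares of all genes. The 6 in female D1 were 4 with DESeq2 and 2 with limma, and both tools called 0 in all 4 comparisons.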

How the data were processed

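RNA of 39 ventral tegmental area punches was sequenced from directional libraries, per the labels' protocols. The deposited table holds estimated counts per gene, called normalized by the authors, which are not whole but keep each library's depth. The submitters' processing notes name Trim Galore, kallisto and DESeq2, without roles, and they list no genome build. Libraries were grouped by their titles. Groups, members, gene lists and tests were chosen with earlier results of these data known.

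Estimated counts were rounded and fitted with edgeR 4.0.16 in R 4.3.3 (TMM scaling, 1 mean per group over all 39 libraries, quasi-likelihood test, two-sided), keeping the 22493 genes that reached 10 in 4 or more libraries. Benjamini-Hochberg adjustment ran over those genes, and adjusted p under 0.05 was called. DESeq2 1.42.0 and limma 3.58.1 on log2(value + 1) were alternatives, with other scaling, filters, spread estimates, blocks and left-out libraries. CPM are TMM-scaled, computed from rounded values, and steps, bands and correlations used log2(CPM + 0.25). Correlations used 100000 permutations, two-sided. The fits and the step search were tested on simulated data. Named genes were called or stepped RT1 genes, the 3 higher and 3 lower with the smallest p in each comparison of a morphine group with saline, and RT1-A1, RT1-A2, RT1-CE16, RT1-Da, RT1-Db1, RT1-Ba, RT1-Bb, RT1-DMa and RT1-DMb. Others, among them RT1-O1l1 and its neighbours, were chosen after their values were seen. Promoters come from RefSeq on GRCr8, aligned with Biopython 1.88. Copies of near-identical sequence can exchange estimated counts, so levels of single RT1 genes are uncertain.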

Additional observations from a re-analysis of the deposited data

Results flagged for a closer look

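In 126 sets of 1 named RT1 gene in 1 group, 14 values, from 8 libraries, stood apart from the rest of their group by more than a gap that chance gives in about 1 in 20 groups. Many of these genes were named because they were called, stepped or smallest in p in these same libraries. The rate of 1 in 20 is therefore no yardstick for the 14. The sets share libraries, and no explanation was tested.

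Male D1 9 was high for 5 class II genes: RT1-Da at 27.5 CPM, RT1-Ba at 23.9, RT1-Bb at 9.47, RT1-Db1 at 9.21 and RT1-Db2 at 1.97 CPM, where the next library of the group held 5.57, 3.74, 1.80, 2.61 and 0.665. Female D30 4 was high for RT1-Ba at 8.31 CPM against 3.53 in the next library. Female saline 1 was high for RT1-CE16 at 54.8 CPM against 3.17, and for RT1-CE6 at 1.62 CPM against 0.423. Female D1 2 was the only library of its group with RT1-CE10, at 1.59 CPM against 0. Female saline 4 was high for RT1-Ha at 0.798 CPM against 0.190.

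Male D1 8 was low for RT1-N2 at 0.863 CPM against 3.52 in the next library, and for RT1-S2 at 0 CPM against 2.75. RT1-T24-1 was low in female D1 3 at 0.275 CPM against 1.503, and in male D30 2 at 1.13 CPM against 2.56. Male D1 8 and female D1 3 are in the high band of RT1-O1l1, and male D30 2 is in its middle band.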

How the results depend on the processing

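In 10 of the 12 comparisons the count of called RT1 genes was 0 under every alternative run. The joint test for any difference within a sex called 1 (RT1-CE16), and 0 with DESeq2 (which gave RT1-CE16 no adjusted p), limma, the replicate block, a block for library-name series and without the 7 libraries low in Slc6a3; leaving out single libraries gave 0 to 1, with 0 without male saline 8. Female against male saline gave 1 (RT1-CE16) without the libraries low in Slc6a3. The 2 stepped RT1 genes became 1 with a gap of 3, with a pseudocount of 1, with at least 4 libraries on each side and without the libraries low in Slc6a3, and stayed at 2 when single libraries were left out. The share of variance between groups was 12.01% to 12.3%. Of 1150 values of 24 named fold changes, 1 changed direction: RT1-DMa in female D1 against saline was -0.22 with the library-name series block. The causes were not tested. Same-numbered libraries of different groups did not deviate together (80 pairs, mean r 0.01, 10 over 0.1, against 0.00 for other numbers), so the numbers were not taken as pairs. With the replicate block the RT1-CE16 log2 fold changes were -1.32 in male D1, -1.64 in male D30, -2.17 in female D1 and -1.94 in female D30. Protein identity between members was not run, and promoter identity, added after seeing the data, was used instead. Genes near 1 CPM rest on few estimated counts per library, which limits what their values can show.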
